A study of Mus musculus with 15 samples.

Results

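The germ cell genes Mael, Dazl, Ddx4, Stk31, Dnd1, Sycp3, Tex101, Nanos3, Kit and Prdm1 were followed in differentiating mouse embryonic stem cells, as 10 of the 24451 genes in the deposited count table. They were chosen by name as genes with known roles in germ cells, and all 10 were among the 14600 genes that passed the filter on low counts. The cells were of the ES-R1 line, below passage 20, and grew without serum on N2 and B27 supplements. Every group went through 4 days of differentiation and carried an siRNA. The 5 groups, of 3 libraries each, were control siRNA with no addition (called untreated here), control siRNA with Activin A at 25 ng/ml, control siRNA with the inhibitor SB, Vprbp siRNA with no addition, and Vprbp siRNA with Activin A at 25 ng/ml. The inhibitor is written SB431524 in the sample titles and SB431542 in the series text, and the dose was not given in the sources used here. It was combined with the control siRNA only. The source is labelled inner cell mass, from which such lines are derived.

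Activin A binds activin receptors whose kinase phosphorylates Smad2 and Smad3, and SB blocks that kinase together with the related Nodal and TGF-beta type I receptors. Vprbp, also called Dcaf1, brings substrates to the CRL4 ubiquitin ligase. Germ cell genes act in stages. Prdm1 (Blimp1) specifies primordial germ cells, the embryonic precursors of eggs and sperm, and Kit, Nanos3 and Dnd1 keep them alive as they migrate. Dazl and Ddx4 mark germ cells that have entered the gonad, Mael acts in the piRNA pathway that silences transposons, and Sycp3 builds the chromosome axis of meiosis. Embryonic stem cells hold many of the later genes down through promoter DNA methylation and through a repressor complex, PRC1.6, in which Mga and Max bind E-boxes and E2F6 binds E2F sites, and such cultures can hold low levels of their RNA.

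The sequence just upstream of the start shows how the genes differ in the letters that these repressors read. RefSeq promoter entries on GRCm38.p6 were found for 9 of the 10 genes. The first entry of each gene was used, and the 250 bases before its start were searched. For Nanos3, Prdm1 and Tex101 these bases lie wholly inside the annotated gene, so a start further upstream was not searched. The E-box CACGTG, which reads the same on both strands, was in 4 of the 9 (Mael, Ddx4, Stk31 and Sycp3, with 2 copies in Sycp3) and in 6.02% of 32851 promoter entries of the same length. The E2F6 core GCGGGA, or TCCCGC on the other strand, was in 4 of the 9 (Mael, Ddx4, Sycp3 and Kit, with 2 copies in Kit) and in 16.9% of all entries. Both motifs were in Mael, Ddx4 and Sycp3, and in 1.45% of all entries. The motifs do not overlap each other in these genes. A match describes the letters only. The 3 genes with both motifs are printed first, then Stk31 with the E-box alone, and Dazl and Nanos3 with neither, because Dazl and Nanos3 also fell with SB. Each line runs 5′ to 3′ on the gene's strand and ends at the base before the start, and the capitals mark the 2 motifs. The positions are chr1:166238745-166238994, minus strand, for Mael; chr13:112652311-112652560, minus strand, for Ddx4; chr10:88459337-88459586, plus strand, for Sycp3. The others are chr6:49395289-49395538, plus strand, for Stk31; chr17:50293621-50293870, minus strand, for Dazl; chr8:84176553-84176802, minus strand, for Nanos3.
Mael: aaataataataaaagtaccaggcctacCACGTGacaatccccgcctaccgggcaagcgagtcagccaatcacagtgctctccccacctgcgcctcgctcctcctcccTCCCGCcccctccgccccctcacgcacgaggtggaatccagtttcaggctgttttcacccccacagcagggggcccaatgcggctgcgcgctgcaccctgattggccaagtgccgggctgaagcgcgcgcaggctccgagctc
Ddx4: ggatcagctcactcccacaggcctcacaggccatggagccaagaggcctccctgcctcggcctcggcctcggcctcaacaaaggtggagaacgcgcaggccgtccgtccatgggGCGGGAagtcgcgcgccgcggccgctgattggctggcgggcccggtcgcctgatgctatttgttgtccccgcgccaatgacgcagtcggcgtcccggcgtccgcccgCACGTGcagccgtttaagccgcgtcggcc
Sycp3: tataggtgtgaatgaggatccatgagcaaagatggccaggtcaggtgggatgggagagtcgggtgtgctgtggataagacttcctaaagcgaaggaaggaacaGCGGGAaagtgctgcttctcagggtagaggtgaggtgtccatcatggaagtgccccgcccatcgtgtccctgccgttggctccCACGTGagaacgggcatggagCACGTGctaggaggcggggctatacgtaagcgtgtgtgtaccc
Stk31: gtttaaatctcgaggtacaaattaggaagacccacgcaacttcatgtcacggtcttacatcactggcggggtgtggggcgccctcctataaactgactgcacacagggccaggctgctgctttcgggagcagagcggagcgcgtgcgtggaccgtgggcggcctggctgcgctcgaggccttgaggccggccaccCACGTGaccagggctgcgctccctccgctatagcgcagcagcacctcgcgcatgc
Dazl: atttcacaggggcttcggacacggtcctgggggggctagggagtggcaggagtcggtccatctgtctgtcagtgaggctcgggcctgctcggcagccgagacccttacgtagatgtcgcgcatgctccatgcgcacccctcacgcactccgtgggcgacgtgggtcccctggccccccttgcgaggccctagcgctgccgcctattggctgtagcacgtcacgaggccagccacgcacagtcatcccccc
Nanos3: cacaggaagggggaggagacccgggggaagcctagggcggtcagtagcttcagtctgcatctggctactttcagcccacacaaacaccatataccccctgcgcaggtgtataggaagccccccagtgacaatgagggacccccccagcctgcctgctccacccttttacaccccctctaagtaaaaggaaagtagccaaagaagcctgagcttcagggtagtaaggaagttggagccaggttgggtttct

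In Mael the E-box began 223 bases before the start and the E2F6 core 143 bases before it. In Ddx4 the 2 motifs began 29 and 136 bases before the start. In Sycp3 the E-boxes began 64 and 43 bases before the start, and the E2F6 core 147 bases before it. CpG dinucleotides, the bases that carry DNA methylation, numbered 31 in Ddx4, 21 in Stk31, 20 in Dazl, 18 in Mael, 17 in Kit, 15 in Prdm1, 14 in Tex101, 12 in Sycp3 and 3 in Nanos3. The median over all entries was 6, with quartiles of 2 and 16. At the starts used, Nanos3 therefore lay below the median and the other 8 genes above it. The E-box and the E2F6 core each contain a CpG, and the shares over all entries were not matched for CpG number. Of motifs bound by factors of the Activin pathway, the Smad palindrome GTCTAGAC and the Foxh1 site AATNCACA (both strands), were in none of the 9, and in 0.167% and 3.18% of all entries. Methylation and factor binding were not measured here.

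The libraries held 11.1 to 15.5 M counts (M, mega) assigned to genes, at which 3 counts equal 0.196 to 0.271 CPM, the unit of all levels below (counts scaled to library size). Vprbp itself, the check of the siRNA labels, had a level of 170.9 ± 3.6 CPM under the control siRNA (SD, n = 3) against 122.1 ± 8.9 CPM under its own. The levels with Activin were 179.0 ± 4.4 and 138.2 ± 9.2 CPM, so the RNA was lowered in part. In a principal component analysis 3 libraries lay apart from their group: replicate 3 of untreated control siRNA and replicate 3 of Vprbp siRNA, both toward the SB libraries on component 1 and away from them on component 2, and replicate 1 of Vprbp siRNA with Activin. The labelled cell type was checked by 9 pluripotency genes. Their summed level was 3965 to 4357 CPM in the untreated libraries, and all 9 passed the filter.

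Per kilobase of exon (GENCODE annotation on GRCm38), Mael at 26.6 and Kit at 22.5 CPM per kb had the highest levels of the 10 in untreated control siRNA cells, followed by Ddx4 at 16.8 and Sycp3 at 15.1 CPM per kb. Dnd1, Dazl and Prdm1 lay between 5.10 and 5.79 CPM per kb, Stk31 was at 3.47, Nanos3 at 2.84 and Tex101, a germ cell surface glycoprotein, at 0.674 CPM per kb. Exons of Sycp3 overlap those of Chpt1 on the other strand, and exons of Dnd1 overlap those of Wdr55. Since the strand setting of the counting was not stated in these sources, the reads of each pair may be mixed, or left out of both genes. Most markers of later germ cells were close to absent: of 14 listed, Tnp1 and Bmp15 were at 0 counts in all 15 libraries, and only 4 passed the filter. One of those 4, the germline transcription factor Sohlh2, made up most of the list's summed level of 28.4 to 45.9 CPM, at 26.6 to 43.0 CPM by library.

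**Figure D1:**
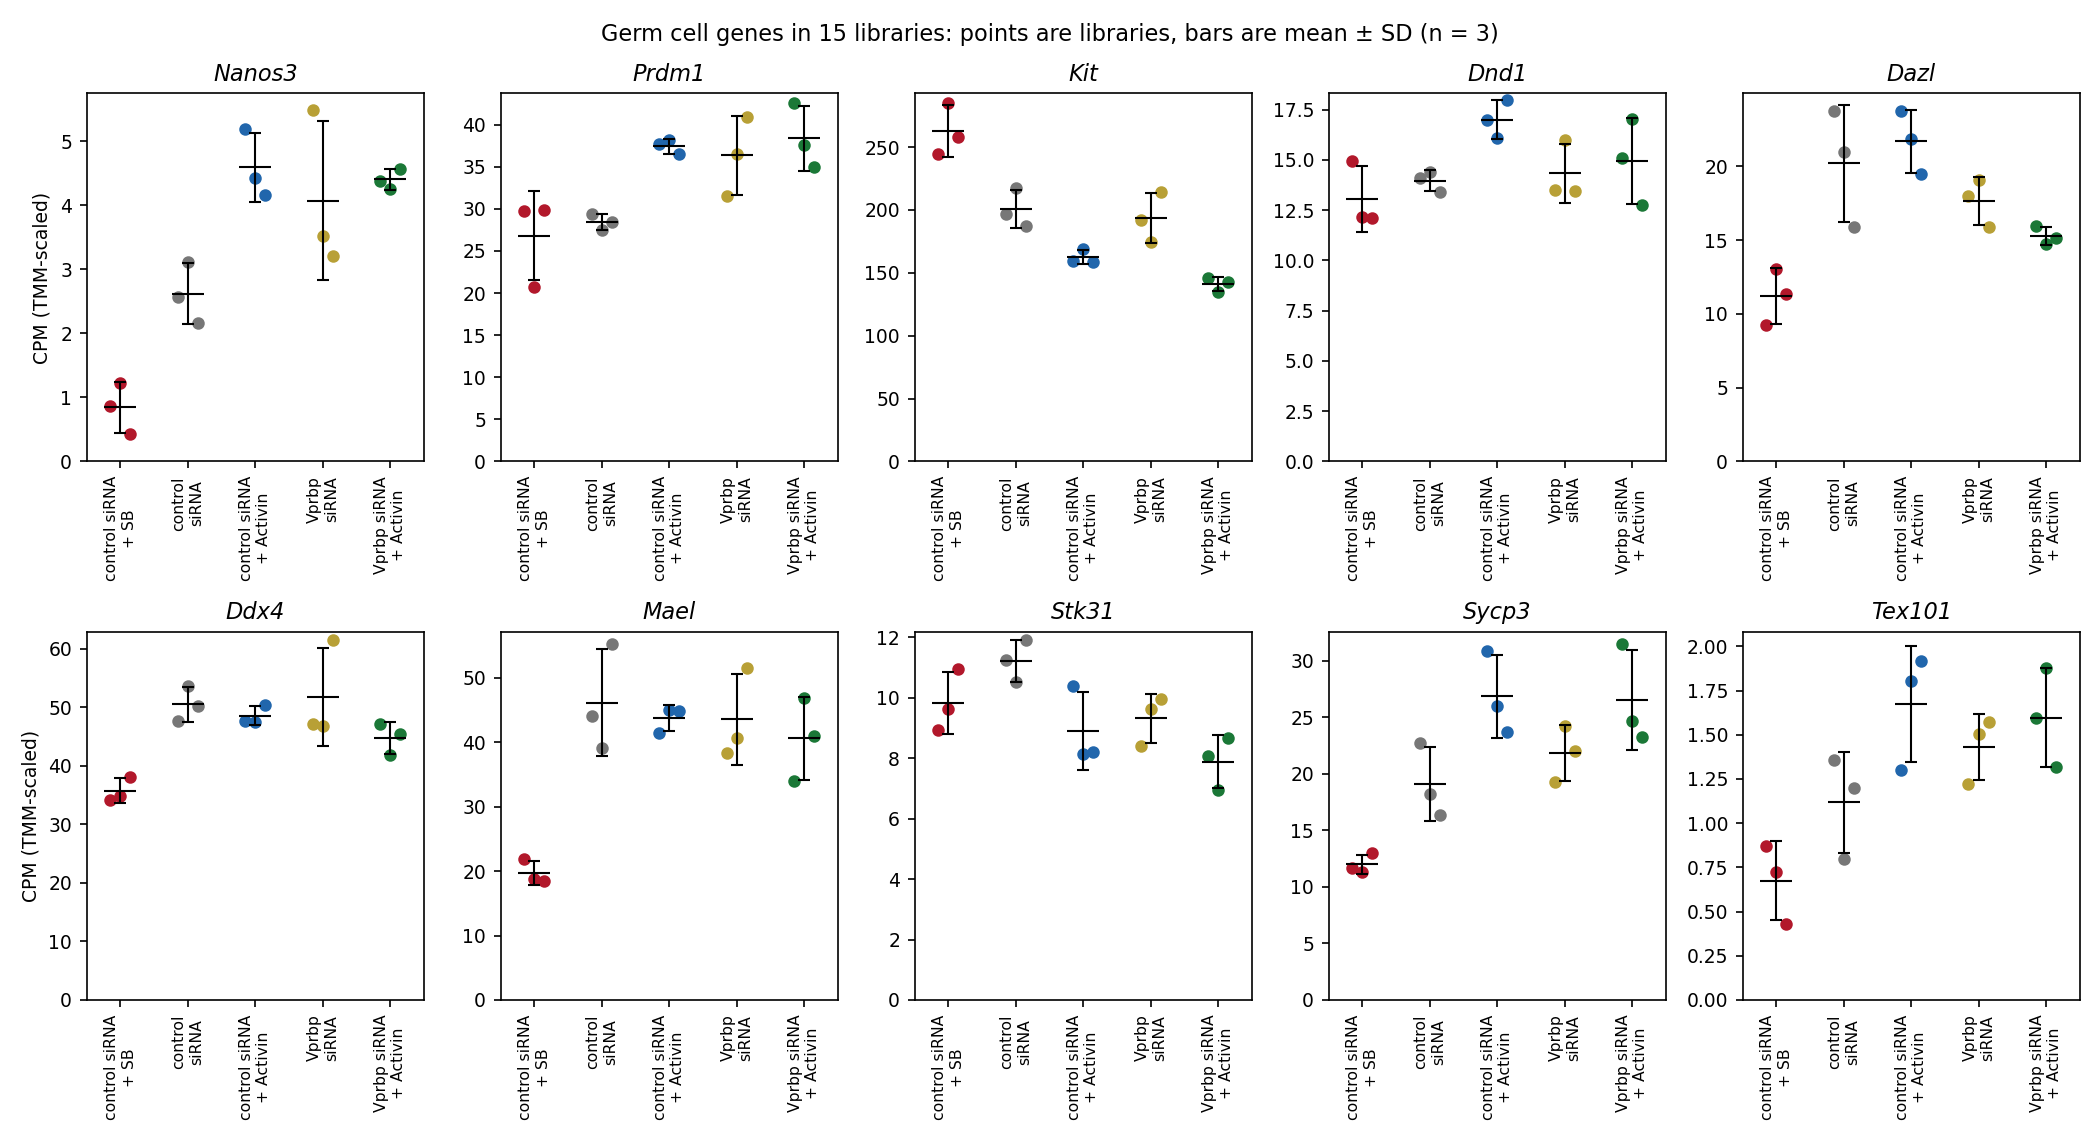
Level of each germ cell gene in every library, in CPM on TMM-scaled library sizes (vertical axis, starting at 0), for the 5 groups (horizontal axis). Points are libraries and bars are the mean ± SD (n = 3). The SB libraries sit lowest for Nanos3, Dazl, Ddx4, Mael and Sycp3 and highest for Kit.

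SB, compared with no addition, asks what the genes do when signalling through the receptors is blocked. With SB, 5 of the 10 genes fell and 1 rose: Nanos3, Mael, Dazl, Sycp3 and Ddx4 were lower and Kit was higher by the quasi-likelihood test of edgeR, with Benjamini-Hochberg adjustment over all genes. SB changed 22.6% of all genes tested, 11.3% downward and 11.2% upward, so a call by itself is common in this comparison. The median log2 fold change was -0.59 over the 10 genes, 9 of them negative, and -0.0048 over all genes tested. The ranges of the 3 SB and 3 untreated libraries did not overlap for the same 6 genes, against 37.2% of all genes. In bulk RNA, fewer cells of a type and less RNA per cell cannot be told apart.

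Nanos3, an RNA-binding protein that protects primordial germ cells from apoptosis, was at 2.58, 3.12 and 2.17 CPM in the untreated libraries and at 0.872, 1.23 and 0.429 CPM in the SB libraries. Every SB library lay below every untreated library, on counts of 38, 43 and 29 against 12, 17 and 6. The fall was 3.09-fold, with a log2 fold change of -1.63 ± 0.32 (SE; edgeR adjusted p = 0.000828). It was the largest fold of the 10 genes and rested on the fewest counts of the 6 that changed. Kit, the receptor for stem cell factor, went the other way. It was at 197.0, 217.3 and 187.5 CPM untreated and at 244.7, 285.1 and 258.2 CPM with SB, again without overlap. The rise was 1.31-fold, a log2 fold change of 0.39 ± 0.08 (SE; edgeR adjusted p = 0.000755). Kitl, which encodes the ligand of Kit, rose as well, from 3.48 to 12.5 CPM (log2 fold change 1.84).

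Kit is also made by blood progenitors and pigment cells. Of 8 blood and endothelial genes, 7 passed the filter, none rose with SB, and Pecam1 fell from 123.4 to 75.6 CPM. Pecam1 made up most of that list's summed level, which was 121 to 156 CPM untreated and 84.8 to 91.1 CPM with SB. That sum therefore follows mainly Pecam1 and is no measure of blood or endothelial cells. The median log2 fold change of the 7 tested was -0.06, with 3 positive and 4 negative. Of 6 pigment cell genes, 2 passed the filter and neither was called. The pigment enzyme Tyr was at 0 in all 15 libraries, and that list summed to 18.5 to 20.5 CPM untreated and 18.0 to 20.0 CPM with SB. The part of such cells in the level of Kit was not tested.

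Prdm1 was at 29.4, 27.5 and 28.4 CPM untreated and at 29.8, 20.8 and 29.9 CPM with SB. Replicate 2 of SB was the low one, and the groups overlapped. The log2 fold change was -0.09, with a 95% confidence interval of -0.34 to 0.17 (edgeR adjusted p = 0.677). Dnd1, which shields germ cell mRNAs from microRNAs, was at 14.0 ± 0.52 and 13.1 ± 1.6 CPM, a log2 fold change of -0.10 (interval -0.36 to 0.17). Falls of Prdm1 or Dnd1 of the size seen for Mael, or the smaller one of Ddx4 (-0.50), lie outside these intervals. Changes within the intervals are not excluded.

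Mael, a nuage protein of the piRNA pathway, was at 44.1, 39.1 and 55.2 CPM in the untreated libraries and at 21.9, 18.7 and 18.5 CPM with SB. All SB libraries were below all untreated ones. The fall was 2.34-fold, a log2 fold change of -1.23 ± 0.14 (SE; edgeR adjusted p = 6.4e-06). Untreated replicate 3, one of the libraries that lay apart, had the highest Mael level of the 15. Ddx4, the Vasa RNA helicase of the same germ granules, was at 47.7, 53.6 and 50.2 CPM untreated and at 34.2, 34.9 and 38.1 CPM with SB. These ranges did not overlap either, and the fall was 1.41-fold (log2 fold change -0.50 ± 0.10, edgeR adjusted p = 0.000677). Dazl, an RNA-binding protein that licenses germ cells for gametogenesis, was at 23.7, 21.0 and 15.9 CPM untreated and at 9.22, 13.0 and 11.4 CPM with SB. Untreated replicate 3 was the nearest to the SB libraries, and still above them. Dazl fell 1.81-fold (log2 fold change -0.85 ± 0.15, edgeR adjusted p = 0.000208).

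Stk31, a kinase-like protein with a tudor domain found in germ cells, was at 11.2 ± 0.70 CPM untreated and 9.83 ± 1.0 CPM with SB. Its groups overlapped, and the log2 fold change of -0.19 had an interval of -0.48 to 0.10 (edgeR adjusted p = 0.370). Sycp3 was at 22.7, 18.2 and 16.4 CPM untreated and at 11.7, 11.4 and 13.0 CPM with SB, without overlap. It fell 1.59-fold (log2 fold change -0.67 ± 0.15, edgeR adjusted p = 0.00209). Chpt1, whose exons overlap it, rose instead, from 12.0 to 16.7 CPM (log2 fold change 0.47). Tex101 was at 1.36, 0.797 and 1.20 CPM untreated and at 0.872, 0.723 and 0.429 CPM with SB. The ranges overlapped, and the log2 fold change of -0.72 had an interval of -1.49 to 0.04 (edgeR adjusted p = 0.173).

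The 6 calls with SB held in each of 14 alternative analyses, which included leaving out each library of the 2 groups and leaving out the 3 libraries that lay apart. Across them Mael stayed between -1.33 and -1.08 and Dazl between -0.998 and -0.72 on the log2 scale.

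**Figure D2:**
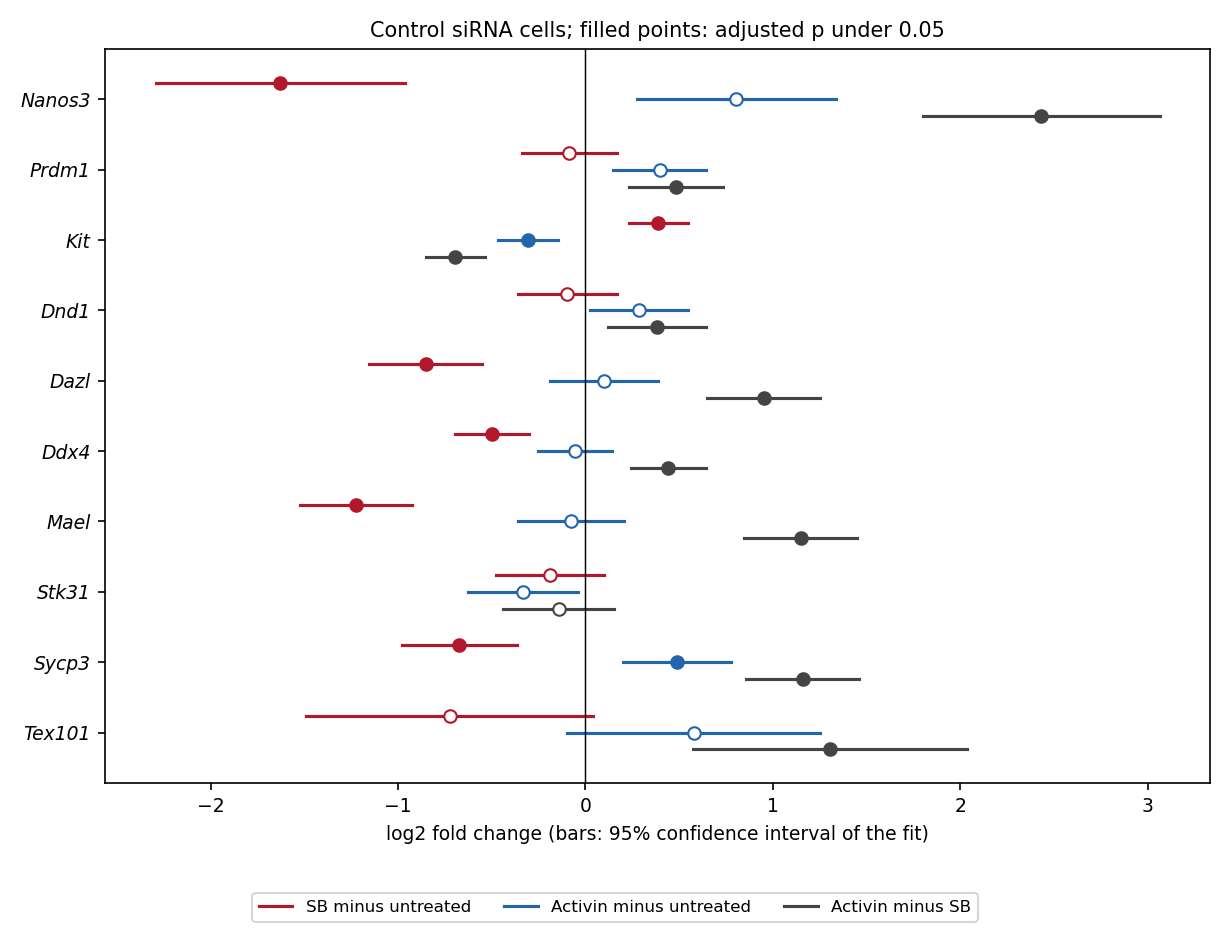
Log2 fold changes of the 10 genes (rows) in control siRNA cells for SB minus untreated, Activin minus untreated and Activin minus SB (colours), with 95% confidence intervals. Filled points passed the adjusted threshold of 0.05. Kit is the one gene with a positive SB value and negative Activin values.

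Other genes of the germ line were read from lists of textbook genes. Of 16 piRNA pathway genes, 13 were tested, and with SB 6 fell and none rose (median log2 fold change -0.63). Of all genes tested, 11.3% fell and 11.2% rose. Tdrd1, a tudor scaffold of the germ granule, fell from 14.6 to 6.26 CPM (-1.22 on the log2 scale). The PIWI proteins Piwil2, at 55.5 and 34.9 CPM (-0.67), and Piwil4, at 7.26 and 2.88 CPM (-1.33), fell, as did the helicase Mov10l1, at 25.8 and 16.7 CPM (-0.63). The other 2 called were Piwil1 and Tdrd12.

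Of 24 meiosis genes, 23 were in the table and 21 were tested. With SB 10 fell and 3 rose (median log2 fold change -0.39), where 11.3% of all genes tested fell and 11.2% rose. The synaptonemal complex genes Syce1 (18.3 to 10.9 CPM, -0.74) and Syce3 (2.09 to 0.482 CPM, -2.10) fell, and so did Tex11 (16.5 to 10.3 CPM, -0.68). Stra8, the retinoic acid target that starts meiosis, rose from 249.3 to 501.2 CPM (1.01 on the log2 scale), and the meiotic cohesin gene Rec8 rose from 131.1 to 208.4 CPM (0.67). Stra8 fell to 66.1 CPM with Activin, a log2 fold change of -1.92. Stra8 and Sycp3, both meiotic, thus had opposite signs in both comparisons.

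Of 15 primordial germ cell genes, 14 were tested, and 2 rose with SB and 1 fell (median -0.03), a share close to the 22.6% of all genes called with SB. Kitl and the homeobox gene Rhox6 (1.17 to 2.70 CPM, 1.20) rose, and the surface gene Ifitm3 fell (82.9 to 53.4 CPM, -0.63). The Rhox6 call was lost without untreated replicate 1 or 3 (edgeR adjusted p of 0.0642 and 0.0805) or SB replicate 1 or 2 (0.0551 and 0.0692). The specification factors Prdm14, at 23.99 ± 4.2 CPM untreated and 22.7 ± 4.3 CPM with SB, and Tfap2c, at 124.3 ± 16.2 and 124.1 ± 15.8 CPM, were not called. Of 22 genes for the repressors of germline genes, all were tested, and 2 rose and 4 fell with SB (median 0.0048), again a share close to that of all genes. The de novo DNA methyltransferase Dnmt3a fell from 435.8 to 243.8 CPM (-0.84), Max from 118.6 to 95.2 CPM (-0.32) and the PRC1.6 subunit Yaf2 from 17.3 to 12.9 CPM (-0.42). Uhrf1, which guides maintenance methylation, rose from 203 to 247 CPM (0.28). Mga, at 459.7 ± 13.1 and 423.8 ± 31.6 CPM, and E2f6, at 33.0 ± 1.7 and 35.5 ± 1.3 CPM, were not called.

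Pluripotency and trophoblast genes moved in the same comparison, in which 11.3% of all genes tested fell and 11.2% rose. Of 9 pluripotency genes, 7 fell with SB and none rose, and their summed level went from 3965 to 4357 CPM untreated to 2363 to 2701 CPM with SB. Pou5f1 fell from 700.2 to 364.0 CPM (-0.94), Dppa5a from 215 to 71.1 CPM (-1.60) and Utf1 from 872 to 464 CPM (-0.91). Of 8 trophoblast genes, 7 were tested, and 5 rose with SB and none fell, with summed levels of 25.9 to 29.0 CPM untreated and 53.7 to 64.8 CPM with SB. The two-cell stage list summed to 0.898 to 3.80 CPM untreated and 0.944 to 1.30 CPM with SB, and Zscan4d fell to 0.241 CPM, about 3 counts, a call that was lost without untreated replicate 1 (edgeR adjusted p = 0.0602). The part of these cell states in the levels of the germ cell genes was not tested.

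**Figure D3:**
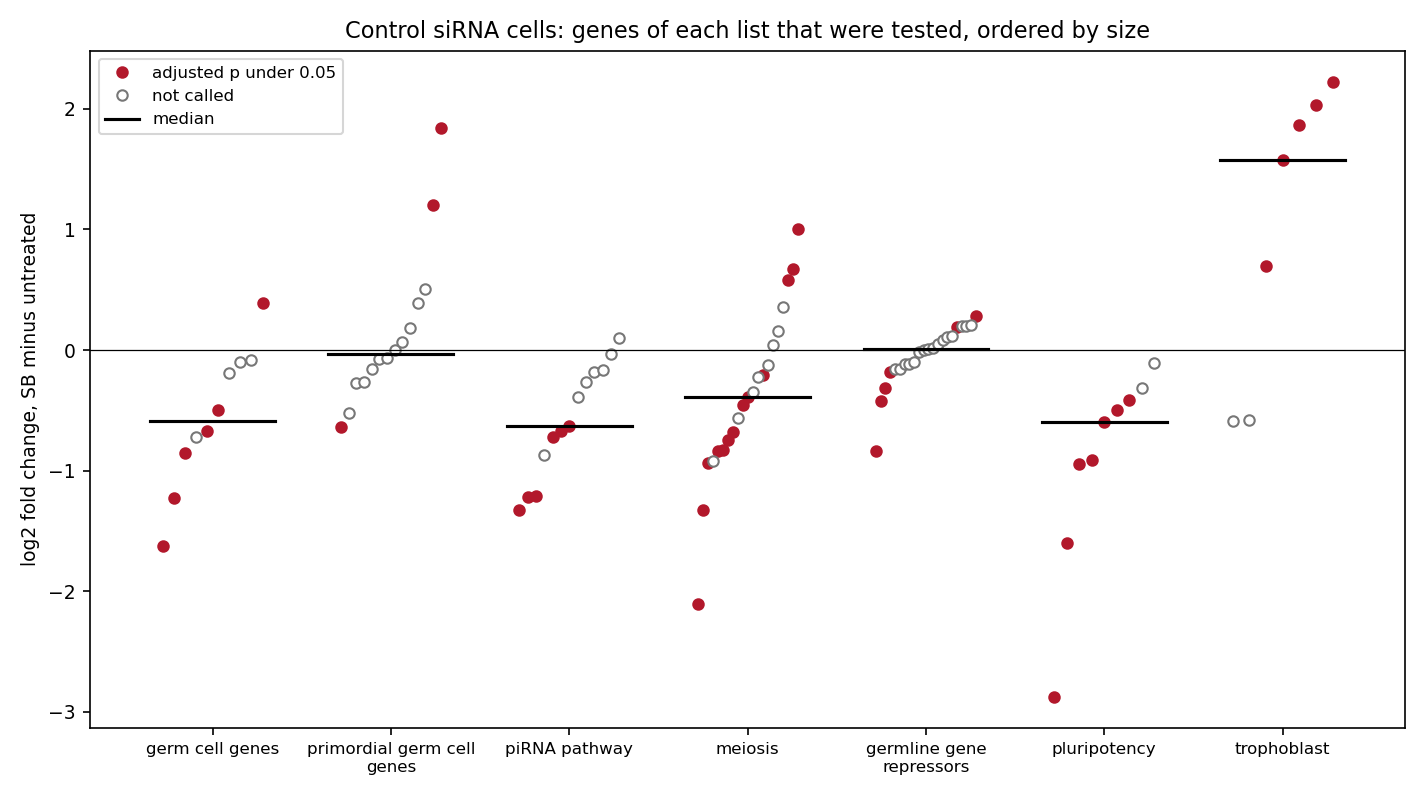
Log2 fold changes of SB minus untreated (vertical axis) for every tested gene of 7 lists (horizontal axis), ordered by size within a list. Filled points passed the adjusted threshold of 0.05 and lines are list medians. The piRNA list has 6 called genes, all lower, and the meiosis list has called genes on both sides of 0.

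Activin, compared with no addition, asks what further stimulation does. It changed 2 of the 10 genes, against 4.83% of all genes tested: Sycp3 rose and Kit fell by the same edgeR test. In each direction these are 1 of 10, where 2.95% of all genes rose and 1.88% fell. The median log2 fold change of the 10 was 0.19, with 6 positive, and that of all genes -0.0054. The ranges did not overlap for 6 of the 10 (higher for Sycp3, Nanos3, Prdm1 and Dnd1, lower for Kit and Stk31), against 27.6% of all genes. The Activin and SB comparisons share the untreated libraries, so their values for a gene are not independent.

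Sycp3 was at 30.9, 26.0 and 23.7 CPM with Activin, each above the untreated range of 16.4 to 22.7 CPM. The rise was 1.40-fold (log2 fold change 0.49 ± 0.14, edgeR adjusted p = 0.0464), close to the threshold. The call was lost with library totals as the scale (adjusted p = 0.0537), when only the compared libraries were fitted (0.0529), without the 3 libraries that lay apart (0.0723), and without any one of 5 libraries, namely Activin replicate 1, 2 or 3 (0.216, 0.112 and 0.0615) or untreated replicate 2 or 3 (0.122 and 0.207). Kit was at 159.3, 168.8 and 158.9 CPM with Activin, all below the untreated range of 187.5 to 217.3 CPM. It fell 1.24-fold (log2 fold change -0.31 ± 0.08, edgeR adjusted p = 0.0261). Leaving out Activin replicate 1, 2 or 3 (0.100, 0.0531 and 0.106) or untreated replicate 2 (0.104) ended this call.

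Nanos3 was at 5.20, 4.42 and 4.16 CPM with Activin, above the untreated range of 2.17 to 3.12 CPM. Its log2 fold change of 0.81 (interval 0.27 to 1.34) missed the adjusted threshold (edgeR adjusted p = 0.0750). Prdm1 was at 37.7, 38.2 and 36.5 CPM, above the untreated range of 27.5 to 29.4 CPM, with a log2 fold change of 0.40 (interval 0.15 to 0.65, edgeR adjusted p = 0.0630). Prdm1 was called by DESeq2 (adjusted p = 0.0394) and without the 3 libraries that lay apart (edgeR, 0.0454). Both genes were called when only the compared libraries were fitted (edgeR adjusted p of 0.0440 for Nanos3 and 0.0133 for Prdm1). With a replicate block both were called too (edgeR adjusted p of 0.0465 and 0.0490). Dnd1 was at 17.0 ± 0.95 CPM (log2 fold change 0.29, edgeR adjusted p = 0.197) and Stk31 at 8.91 ± 1.3 CPM (-0.33, adjusted p = 0.182). Of 9 visceral endoderm genes, 8 were tested, and 2 rose with Activin and 0 fell, beside 2.95% of all genes that rose. Their median log2 fold change was 0.52, with 6 positive and 2 negative. The list summed to 101.9 to 107.4 CPM untreated and 106.8 to 144.5 CPM with Activin. The part of such cells in the level of Prdm1 was not tested.

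The germ granule genes Mael and Ddx4, and also Dazl, lay near their untreated levels. Mael was at 41.4, 45.0 and 44.8 CPM with Activin (log2 fold change -0.08, interval -0.36 to 0.20), Ddx4 at 47.7, 47.5 and 50.4 CPM (-0.06, interval -0.25 to 0.14) and Dazl at 23.8, 21.8 and 19.5 CPM (0.10, interval -0.19 to 0.39). All 3 overlapped the untreated libraries, and the intervals exclude shifts of the size seen with SB. Tex101 was at 1.67 ± 0.33 CPM (0.58, interval -0.10 to 1.25). None of the 13 tested piRNA pathway genes was called with Activin by edgeR. In the meiosis list 3 of 21 tested fell, beside 1.88% of all genes: Stra8, Rec8 (131.1 to 93.3 CPM, -0.49) and Taf7l (12.5 to 7.39 CPM, -0.76). Among the repressors Dnmt3b rose from 241 to 451 CPM (0.90) and Cbx1 from 114 to 134 CPM (0.24), and in the primordial germ cell list Ifitm3 rose (0.29). Of these 6 calls, those of Stra8 and Dnmt3b held in all alternatives. Each of the other 4 was lost without Activin replicate 1 or 2 (edgeR adjusted p of 0.104 and 0.102 for Rec8, 0.117 and 0.0671 for Taf7l, 0.119 and 0.0967 for Cbx1, 0.113 and 0.113 for Ifitm3) and without untreated replicate 3 (0.105, 0.138, 0.158 and 0.156). Leaving out Activin replicate 3 ended those of Taf7l, Cbx1 and Ifitm3 (0.144, 0.109 and 0.122), untreated replicate 1 the same 3 (0.0576, 0.0610 and 0.0634), and untreated replicate 2 those of Rec8 and Ifitm3 (0.0677 and 0.0614). Ifitm3 was also lost with library totals (0.0506) and without the 3 libraries that lay apart (0.0721).

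Set directly against each other, Activin and SB gave different levels for 9 of the 10 genes, with 38% of all genes called (19% higher and 19% lower). With Activin 8 were higher, Kit was lower, and Stk31 was not called (log2 fold change -0.14, interval -0.44 to 0.15). Nanos3 differed most, 5.40-fold (log2 fold change 2.43 ± 0.30, edgeR adjusted p = 2.76e-06). Tex101 differed 2.47-fold (1.30 ± 0.35, edgeR adjusted p = 0.00591), Sycp3 2.23-fold (1.16 ± 0.14) and Mael 2.22-fold (1.15 ± 0.14). Dazl (0.95 ± 0.15), Prdm1 (0.48 ± 0.12), Ddx4 (0.44 ± 0.10) and Dnd1 (0.38 ± 0.12) had smaller differences, and Kit was at -0.69 ± 0.08. The Dnd1 call (edgeR adjusted p = 0.0205) was lost without Activin replicate 1 or 3 (0.0517 and 0.0848) or SB replicate 2 or 3 (0.0878 and 0.0884), while the other 8 calls held in all 14 alternatives. In the other lists 8 of 13 piRNA genes were higher with Activin and none lower, and 9 of 21 meiosis genes were higher and 3 lower.

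The order of the 5 group means separated the genes further. SB was lowest for 8 of the 10, and for Mael, Dazl, Ddx4, Sycp3 and Nanos3 its libraries did not overlap those of the next group. Mael, in the other 4 groups, lay between 40.6 and 46.2 CPM, with each neighbour overlapping the next. Untreated control siRNA had the second lowest mean for Nanos3, Prdm1, Sycp3, Tex101 and Dnd1. Only for Nanos3 and Prdm1 did Vprbp siRNA without Activin (4.08 ± 1.2 CPM for Nanos3) lie above untreated control without overlap. For these genes both Activin groups did so too, and the 3 groups overlapped one another. For Sycp3, Activin with either siRNA gave 26.8 ± 3.7 and 26.5 ± 4.4 CPM, above the other 3 groups in mean. Kit had the reverse order of Prdm1, from 262.7 ± 20.6 CPM with SB to 141.1 ± 5.6 CPM with Vprbp siRNA and Activin. Stk31 was highest in the untreated control cells and lowest with Vprbp siRNA and Activin (7.88 ± 0.88 CPM).

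Likeness of other genes was measured as the root mean square difference of the 5 group means in log2 CPM after each gene was centred, over about 3597 candidate genes. Nearest to Mael were Neurod1 (0.03), Tet1 (0.05) and Slc5a11 (0.05). Nearest to Nanos3 were Skil (0.12), Hoxa10 (0.13) and Lrrc2 (0.14), to Dazl Inpp5d (0.03), Slc11a1 (0.06) and Aim2 (0.07), and to Sycp3 Adk (0.03), Cmas (0.04) and Adam19 (0.04). For Ddx4 they were Tbcd (0.02), Slc39a14 (0.02) and Platr4 (0.03), and for Kit Acadsb (0.03), Prss35 (0.04) and Fndc3b (0.04). Prdm1 was nearest to Supt4a, Mbtd1 and Xrcc4 (0.04 to 0.05) and Tex101 to Urgcp, Letm2 and Coa6 (0.03 to 0.05). With 5 points a gene, these values describe the profile only.

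Vprbp siRNA was compared with control siRNA to ask what lowering Vprbp does to the genes. None of the 10 passed the threshold of edgeR's quasi-likelihood test, either without or with Activin, and DESeq2 called none. In both comparisons 6 of 14600 genes were called, which is 0.0411% of all genes. At an unadjusted p under 0.05, 2 of the 10 genes passed in each comparison, beside 8.16% of all genes without Activin and 10.5% with it. A p that misses the threshold does not show that the siRNAs gave equal levels, and effects of less Vprbp and other effects of the siRNA cannot be told apart here.

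Without Activin, the ranges did not overlap for 3 of the 10 (Nanos3 and Prdm1 higher, Stk31 lower), against 12.3% of all genes. Prdm1 was at 31.5, 36.6 and 40.9 CPM with Vprbp siRNA against 29.4, 27.5 and 28.4 CPM with control siRNA. All 3 Vprbp siRNA libraries were above the control ones. The log2 fold change was 0.36 (interval 0.11 to 0.60, edgeR adjusted p = 0.464). Libraries of these 2 groups with the same replicate number deviated alike from their group means, with correlations of 0.13, 0.20 and 0.39 over genes. The labels do not say that they were paired, and replicate 3 of both groups lay apart in the same direction. With a replicate block 18 genes were called instead of 6. In a block fit of those 6 libraries alone, added after seeing the data, Prdm1 passed (0.35 ± 0.09, edgeR adjusted p = 0.0483), as did 333 genes in all. Nanos3 was at 5.50, 3.53 and 3.20 CPM with Vprbp siRNA, of which replicate 1 was the high one. Its log2 fold change was 0.63 (interval 0.09 to 1.16, edgeR adjusted p = 0.551). Stk31 was at 8.40, 9.61 and 9.94 CPM against 11.3, 10.5 and 11.9 CPM (-0.27, interval -0.56 to 0.02). The other 7 genes overlapped between the siRNAs, with intervals that all contained 0.

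With Activin, 3 of the 10 genes had ranges that did not overlap, all lower with Vprbp siRNA (Dazl, Ddx4 and Kit), against 17.4% of all genes in either direction and 9.04% lower. Dazl was at 16.0, 14.7 and 15.2 CPM against 23.8, 21.8 and 19.5 CPM, a log2 fold change of -0.50 (interval -0.80 to -0.21, edgeR adjusted p = 0.208). Without the 3 libraries that lay apart, left out after seeing the data, Dazl passed (-0.53 ± 0.13, edgeR adjusted p = 0.0355), and it was not called in the other 13 alternatives. Kit was at 145.9, 134.9 and 142.4 CPM against 159.3, 168.8 and 158.9 CPM (-0.20, interval -0.36 to -0.04, edgeR adjusted p = 0.346). Ddx4 was at 44.8 ± 2.7 CPM against 48.5 ± 1.6 CPM (-0.12, interval -0.32 to 0.08). The trophoblast list summed to 29.7 to 70.0 CPM with Vprbp siRNA and Activin and to 26.9 to 30.2 CPM with control siRNA and Activin, and its part in these levels was not tested. In the other germ line lists, the one gene called with Vprbp siRNA was Ifitm3, which rose without Activin (82.9 to 127.0 CPM, 0.61) and with it (101.1 to 145.8 CPM, 0.53). The Ifitm3 call with Activin was lost without Activin control replicate 1, 2 or 3 (edgeR adjusted p of 0.156, 0.112 and 0.0596) or Vprbp siRNA with Activin replicate 2 (0.0601).

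**Figure D4:**
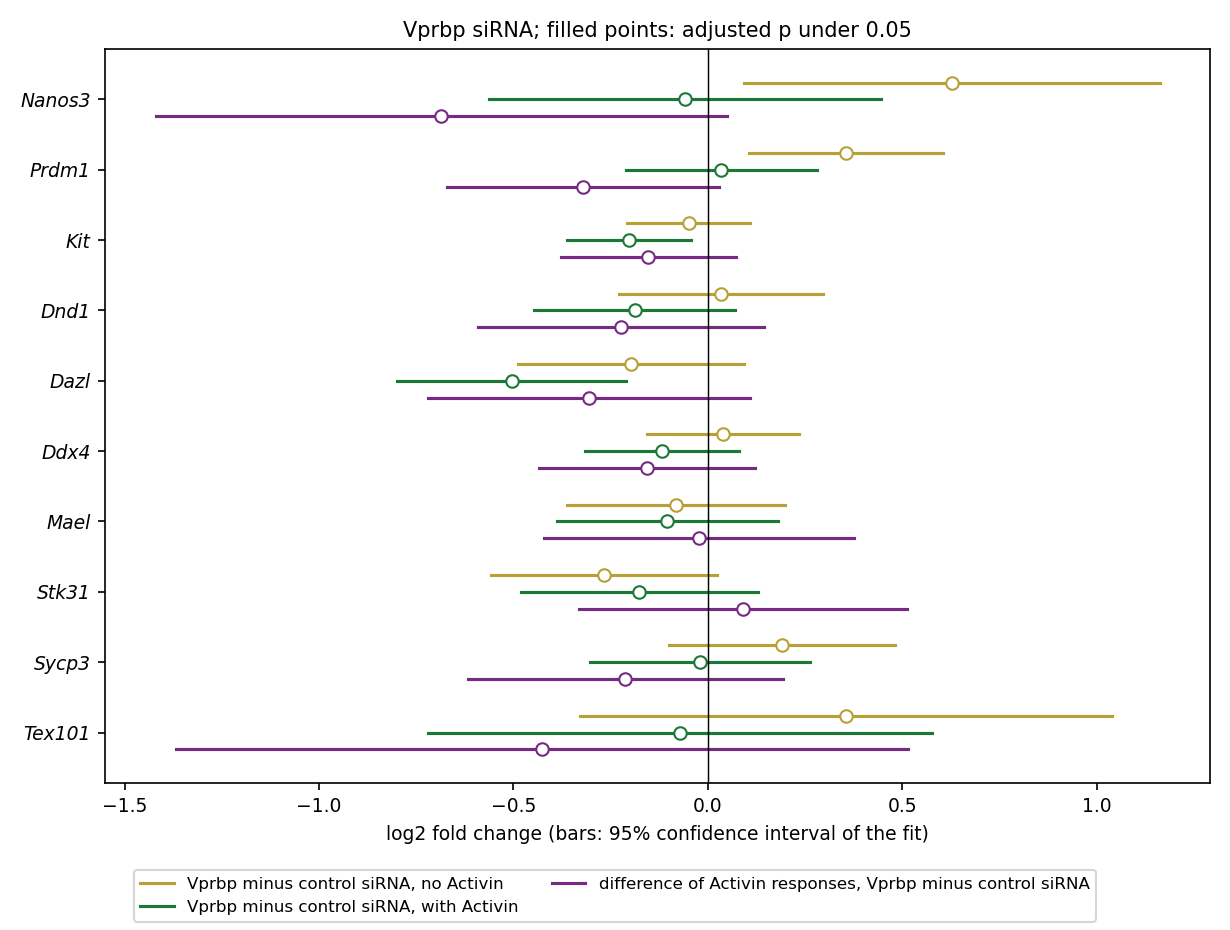
Log2 fold changes of the 10 genes (rows) for Vprbp minus control siRNA without and with Activin, and for the difference of the 2 Activin responses (colours), with 95% confidence intervals. All points are open: none passed the adjusted threshold of 0.05. Nanos3 and Prdm1 without Activin, and Dazl and Kit with Activin, have intervals that leave out 0.

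In Vprbp siRNA cells, Activin changed 1 of the 10 genes, a fall, beside 6.12% of all genes in either direction and 2.47% that fell. Kit fell from 192.0, 174.8 and 214.5 CPM to 145.9, 134.9 and 142.4 CPM, without overlap, where 21.4% of all genes did not overlap. The fall was 1.37-fold (log2 fold change -0.46 ± 0.08, edgeR adjusted p = 0.00102) and was called in all 14 alternatives. Sycp3 had a log2 fold change of 0.28 (interval -0.01 to 0.56), Nanos3 of 0.12 (interval -0.39 to 0.63) and Prdm1 of 0.08 (interval -0.17 to 0.32). Mael, Dazl and Ddx4 were at -0.10, -0.21 and -0.21. Piwil2 fell in this comparison (52.2 to 36.7 CPM, -0.51), as did Tfap2c (128.3 to 82.9 CPM, -0.63), Stra8 (-2.15) and Tex15 (-0.42). The Piwil2 call was lost without Vprbp siRNA replicate 3 (edgeR adjusted p = 0.0650). The Tex15 call was lost without any one of the 6 libraries (0.0856 to 0.120) except Vprbp siRNA with Activin replicate 3, when only those 6 were fitted (0.0734), and without the 3 libraries that lay apart (0.111).

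Whether the Activin response itself differed between the siRNAs was tested as the difference of the 2 responses. By edgeR's adjusted test none of the 10 differed, and 0% of all genes did. DESeq2 also called 0 genes. An unadjusted edgeR p under 0.05 was found for 517 genes (3.54%), none of them among the 10. The differences with the smallest unadjusted p-values were those of Nanos3 (-0.69, interval -1.42 to 0.05) and Prdm1 (-0.32, interval -0.67 to 0.03), and the edgeR adjusted p was 0.999 for both. For Kit the difference was -0.15 (interval -0.38 to 0.07). For Sycp3 it was -0.21 (interval -0.62 to 0.19). The intervals of Nanos3 and Prdm1 hold values as large as their Activin responses in control siRNA cells, so these libraries could not tell a lost response from a kept one.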

How the data were processed

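RNA sequencing libraries of 15 samples, 5 groups of 3, were analysed. The authors deposited raw fragment counts per gene symbol, and per the submitters' processing notes HTSeq 0.6.1p1 and the build mm10 (GRCm38) were used. The aligner, annotation and strand setting were not given in the sources used here. Groups came from the sample titles. The 5 HTSeq tally rows entered neither library sizes nor tests: 10.3% to 16.0% of fragments were tallied as having no feature and 27.7% to 29.5% were not aligned.

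Genes passing edgeR's filterByExpr (minimum count 10; 14600 of 24451) were scaled by TMM (factors 0.985 to 1.02) and tested with edgeR 4.0.16 (robust quasi-likelihood, R 4.3.3) over all 15 libraries, with Benjamini-Hochberg adjustment over all genes tested and a threshold of 0.05. CPM values use the scaled library sizes and come with SD over 3 libraries; log2 fold changes come with the SE and 95% interval of the fit. The SB comparison alone was also run on simulated, independent libraries. These held no shifts shared by replicate number and no libraries that lay apart, so that run does not cover such features. Whether replicates were separate cultures is not stated in the labels, and p-values then reflect only how far these samples spread, which may be technical. Every replicate pair differed by more than sampling noise (chi-square per degree of freedom 2.82 to 16.7).

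The genes, the lists and the tests were chosen with earlier results of these data known. All 10 genes are accounted for; from each other list up to 4 genes with the smallest p-values per comparison were to be named, and the 3 genes nearest in profile to each gene that changed and ranged over at least 0.5 log2 units. Piwil1, Tdrd12, Rec8, Prdm14, Tfap2c, Mga, E2f6, Sohlh2, Tnp1, Bmp15, Tyr and the genes overlapping Sycp3 and Dnd1 were named beyond this rule, after their values were seen.

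As a check on pairing, the deviations from the group mean of libraries with the same number were correlated over genes. The values were 0.13, 0.20 and 0.39 for untreated control against Vprbp siRNA, and no other pair of groups exceeded 0.1 at each number. Deviations within a group cancel out, so the values at the 3 numbers are not independent. A shift shared by replicate 3 of both groups, which lay apart, raises all of them, so these values do not establish pairing. The alternatives were DESeq2 1.42.0, a replicate block, RLE size factors, library totals, leaving out each library, fitting the compared libraries alone, no filter, and keeping genes with 1 CPM or more in 3 libraries. A fit without the 3 libraries that lay apart and a block fit of only the untreated control and Vprbp siRNA libraries were added after seeing the data. Promoter sequences are RefSeq entries on GRCm38.p6, and gene lengths are from GENCODE on GRCm38.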

Additional observations from a re-analysis of the deposited data

How the results depend on the processing

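No gene named here reversed its direction while called. The counts of germ cell genes called with SB (6), with Activin in Vprbp siRNA cells (1) and for the difference of responses (0) were the same under every alternative. Those called with Activin in control siRNA cells (2) became 1 with library totals, 3 by DESeq2 and 3 with only the compared libraries, 4 with a replicate block, which those groups share only as a number, and 0 to 2 on leaving out a library. Over all genes, the Activin count of 705 became 1058 with the block and 265 to 721 on leaving out a library, and the count in Vprbp siRNA cells (894) became 373 when only the compared libraries were fitted and 351 to 1167 on leaving out a library. Vprbp siRNA without Activin called 6 genes. That count became 10 without the filter, 30 by DESeq2, 18 with the replicate block, 1 (Ifitm3) with only the compared libraries, 76 without the 3 libraries that lay apart, 333 with the block in only the compared libraries, where 1 germ cell gene, Prdm1, passed, and 2 to 37 on leaving out a library. Vprbp siRNA with Activin also called 6, which became 15 without the filter, 70 by DESeq2, 51 with the block, 68 with only the compared libraries, 205 without the 3 libraries, with 1 germ cell gene, Dazl, and 0 to 21 on leaving out a library. The difference of responses called 1 gene, Wnt8a, without the 3 libraries, named after its value was seen, as was Ifitm3. Apart from fewer libraries and genes tested, the cause of these shifts was not tested. The block changed no other count of germ cell genes. Depth limited Tex101 and Nanos3, whose SB libraries held 6 to 17 counts of Nanos3, and 3 libraries a group cannot give an exact permutation p below 0.1.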
